A study of Mus musculus with 32 samples.

Results

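The phase II conjugation enzymes measured here were UDP-glucuronosyltransferases, glutathione S-transferases and sulfotransferases of mouse liver. Members were all genes whose symbol in the platform annotation began with Ugt1 to Ugt3 or Ugt8 and the letter a or b, with Gst and a class letter (a, m, p, t, z, k or o) and a number, or with Sult1 to Sult6. Probe sets with 1 symbol were taken, and the probe set with the highest mean where a gene had several. This gave 50 of the 22180 genes tested, of which 11 were UDP-glucuronosyltransferases, 18 glutathione S-transferases and 21 sulfotransferases, each read by 1 probe set. A further 9 probe sets carried several symbols and held 16 symbols of these families, among them the Ugt1a genes, Gsta1, Gsta2 and Gstz1. They were not analysed here, since their signal cannot be given to 1 gene.

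Phase II enzymes attach a polar group to drugs, hormones, bile acids and products of lipid oxidation, so that these become soluble and can be exported in bile or urine. Glucuronosyltransferases of the Ugt1 and Ugt2 groups sit in the endoplasmic reticulum and use UDP-glucuronic acid, cytosolic glutathione S-transferases use glutathione, and sulfotransferases use the sulfate donor PAPS. The liver expresses many of them at high levels, and their genes are known targets of the nuclear receptors CAR and PXR, of the dioxin receptor AHR and of the oxidative stress factor NRF2.

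Livers came from 32 male wild-type (WT) C57BL/6NTac mice 14 weeks old, each on its own Affymetrix Mouse Gene 2.1 ST array. All mice were fasted for 10 h and then received by gavage either palm oil at 2 g per kg body mass or water, the control. In the 9 palm oil basal and 7 control basal mice, the liver was taken 6 h after gavage under isoflurane. The 9 palm oil clamped and 7 control clamped mice had been fitted with a jugular vein catheter under ketamine and xylazine days before. They received a glucose tracer and then a hyperinsulinemic-euglycemic clamp, in which insulin was infused at 15 pmol per kg and minute while glucose was held at a target, and were killed with ketamine and xylazine. A difference between clamped and basal mice therefore holds the insulin infusion together with surgery, tracer, the agent used for killing and a later time of sampling, and these cannot be told apart. The number in the sample description ran from 15 to 32 in clamped and from 33 to 52 in basal mice. What it stands for is not stated, and whatever differs along it cannot be told apart from the clamp either.

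Levels are log2 values, so that a difference of 1 is a 2-fold difference in signal, and a level depends on the probes as well as on the RNA, so that levels do not rank the genes. The 8 hepatocyte markers averaged 10.26 to 10.66 in basal and 10.51 to 10.70 in clamped livers, and 2 of them rose on the clamp in control and 1 in palm oil mice. The 9 markers of pancreatic acinar cells averaged over 6 in 12 arrays (9 basal, of which 5 had received palm oil, and 3 clamped, of which 2 had), and group medians of that average were 7.81 and 7.51 in palm oil and control basal mice and 1.95 and 1.99 in the clamped ones. The 7 neutrophil markers averaged 1.96 to 2.81 in basal and 3.20 to 4.49 in clamped mice, 6 of them passing the test upward in both clamp comparisons. The defining marker Ly6g did not (-0.05 in control mice, adjusted p = 0.888). Its group means of 0.97 to 1.14 lay below the median gene's level (1.83), where RMA compresses differences. In 7 of the 16 basal arrays, those with a number of 44 or higher in the sample description, the interquartile range over all probe sets was 2.44 to 2.54. It was 2.72 to 2.96 for the remaining 9 and 2.64 to 2.85 for clamped livers. These 7 were 4 of the 7 control basal and 3 of the 9 palm oil basal arrays. Of 7 Kupffer cell markers, 3 rose in control and 2 in palm oil mice on the clamp, and of 7 endothelial markers 1 rose and 1 fell in each. Of 6 stellate cell markers 0 passed in control mice, and 2 rose and 1 fell in palm oil mice. Beside these marker counts, 8.75% of all genes passed in control and 7.57% in palm oil mice. Among genes above the median level it was 16.5% and 14.2%.

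Of the 50 members, 33 had a mean level above that of the median gene (1.83) and 17 did not. The dim members included 7 of the 8 Sult2a genes, hydroxysteroid and bile acid sulfotransferases, and Sult3a1 and Sult3a2. They also included Sult4a1, Sult6b1, Sult6b2, Sult2b1, Sult1c1, Gsto2, Gstt4 and Ugt8a. Mean levels of the 17 lay between 0.81 and 1.48, and none of the 17 passed the adjusted test with all 32 arrays. Sult6b1 was called in control mice on the clamp without control basal replicate 1 (-0.58, adjusted p = 0.0378), where it stood at -0.45 (adjusted p = 0.137) with all arrays. In limma, 1 of the 17 had an unadjusted p under 0.05 in control mice on the clamp and 0 in palm oil mice, where 20.9% and 18.6% of all genes had, 2 between basal gavage groups, 0 between clamped ones and 0 in the interaction of clamp and gavage. The exact rank sum test, run between pairs of groups, called 0 of them.

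Clamped and basal mice were compared within each gavage group with limma across all genes, with a threshold of 0.05 on the Benjamini-Hochberg adjusted p. In control mice, 9 of the 50 members passed (18%), while 8.75% of all genes did. Sult1a1, Sult1d1, Sult1e1 and Gstp2 rose, as did 4.66% of all genes, and Gsta4, Gstt1, Gstt2, Gstt3 and Ugt2b35 fell, as did 4.09%. After palm oil, 8 of 50 passed (16%), and 7.57% of all genes did. Sult1a1, Sult1d1 and Sult1e1 were higher there (3.76% of all genes were), and Gsta4, Gstt1, Gstt2, Sult1c2 and Ugt2b35 lower (3.8% of all genes). The 7 members that passed in both comparisons had the same direction in both, and 4.92% of all genes did so.

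Genes with a level above the median passed more often, and 33 of the 50 members are such genes. Among the 33 members above the median level, 27.3% passed in control mice and 24.2% in palm oil mice, where 16.5% and 14.2% of all genes above that level did. The median difference over the 50 members was -0.11 in control mice and -0.01 in palm oil mice, and over all genes it was -0.02 in both. Without control clamped replicate 6, the control median was -0.05 over the members, and over the 33 brighter ones it went from -0.12 to 0.01. By family, sulfotransferases had 3 higher and 0 lower members in control mice and 3 higher and 1 lower in palm oil mice. Glutathione S-transferases had 1 higher and 4 lower, then 0 higher and 3 lower, and glucuronosyltransferases 0 higher and 1 lower in each. In whole liver, fewer cells of a type and less RNA per cell cannot be told apart.

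**Figure D1:**
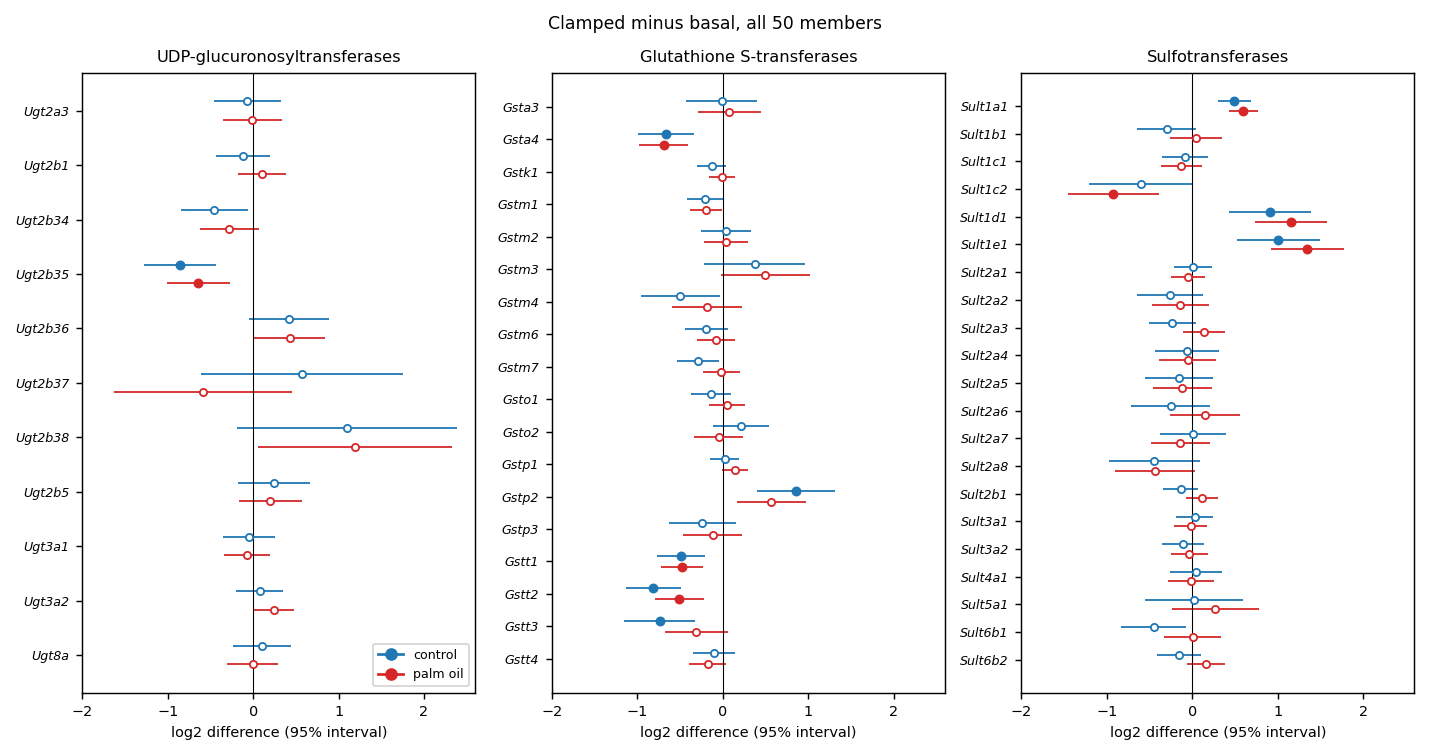
Log2 difference, clamped minus basal, with its 95% interval on the horizontal axis for each of the 50 members, in control mice (blue) and palm oil mice (red), in 1 panel per family. Filled points passed the adjusted threshold: 9 for control and 8 for palm oil, with Sult1a1, Sult1d1 and Sult1e1 to the right of 0 and Gsta4, Gstt1, Gstt2 and Ugt2b35 to the left in both.

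The genes Sult1a1, Sult1d1 and Sult1e1 were higher in clamped livers of both gavage groups. Sult1a1 is the main phenol sulfotransferase of liver, Sult1d1 sulfates catecholamines and other phenols in rodents, and Sult1e1, the estrogen sulfotransferase, inactivates estrogens. Sult1b1, Sult1d1 and Sult1e1 follow one another directly on chromosome 5, in the RefSeq order of genes, shortly after the Ugt2 genes, and Sult1a1 lies on chromosome 7.

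To let the upstream sequences of these genes be read beside their values, the 250 bases before the RefSeq start (GRCm38.p6) are given 5′ to 3′ on the gene's strand. Those of Sult1a1 are chr7:126676419-126676668, of Sult1d1 chr5:87569007-87569256 and of Sult1e1 chr5:87591612-87591861, all on the minus strand. Capitals in Sult1d1 mark a match to the first part of the site of the liver factor HNF1 (GTTAAT, any base, ATT), 79 bases before the start, and a match to GCGTG read on the other strand, 47 bases before the start, the core to which AHR binds.
Sult1a1: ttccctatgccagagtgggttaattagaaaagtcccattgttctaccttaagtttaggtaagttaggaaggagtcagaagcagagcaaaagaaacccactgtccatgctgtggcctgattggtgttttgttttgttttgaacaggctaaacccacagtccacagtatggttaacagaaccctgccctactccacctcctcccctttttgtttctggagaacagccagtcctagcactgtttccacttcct
Sult1d1: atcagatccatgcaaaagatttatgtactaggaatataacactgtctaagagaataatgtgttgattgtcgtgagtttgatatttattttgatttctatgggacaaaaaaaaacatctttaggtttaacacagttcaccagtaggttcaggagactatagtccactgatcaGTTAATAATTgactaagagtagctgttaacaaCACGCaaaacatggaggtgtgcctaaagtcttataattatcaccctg
Sult1e1: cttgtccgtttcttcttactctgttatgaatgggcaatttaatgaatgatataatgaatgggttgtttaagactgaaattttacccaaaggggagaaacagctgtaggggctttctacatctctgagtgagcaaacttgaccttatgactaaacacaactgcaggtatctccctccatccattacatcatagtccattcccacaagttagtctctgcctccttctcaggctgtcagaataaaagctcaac
Their GC content was 45.6%, 34.0% and 40.8%.

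Promoters (250 bases before to 50 after the start) were given for 43 of the 50 members, 53 promoters in all, and 4 motifs were searched on both strands. The first part of the HNF1 site was in the promoters of 5 members, Sult1d1, Sult2a3, Sult2a4, Sult2a5 and Sult2a6, and in 0.399% of all 32851 promoters. The longer HNF1 site (GTTAAT, any base, ATTAAC), which overlaps it, was in none of the members' promoters and in 0.00913% of all. GCGTG was in the promoters of 7 members (Gstm1, Gstp1, Gstp3, Sult1b1, Sult1d1, Sult2b1 and Ugt8a) and in 32.4% of all promoters. TGACNNNGC, the core of the antioxidant response element to which NRF2 binds, was in those of Gsta3 and Gstm7 and in 12.4% of all. TATAAA, searched on the gene's strand and added after the data were seen, was in the promoters of 8 members and in 8.32% of all, and in none of the 3 printed above. A match is a run of letters in this window and no measured binding.

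Sult1a1 (probe set 17496354) had the smallest p of any member in both comparisons. In control mice its lowest, median and highest levels were 8.71, 8.90 and 9.07 in basal and 9.11, 9.36 and 9.55 in clamped livers. Palm oil mice had 8.70, 8.87 and 9.23 in basal and 9.13, 9.56 and 9.65 in clamped livers. All 7 clamped control livers lay above every basal one, and so did 8 of the 9 clamped palm oil livers. Groups did not overlap for 2.55% of all genes in control mice and 1.45% in palm oil mice. The difference was 0.49 ± 0.10 (SE) in control mice (1.41-fold, adjusted p = 6.19e-04) and 0.60 ± 0.08 in palm oil mice (1.51-fold, adjusted p = 7.03e-06). It passed under all 49 alternative settings and arrays left out in both comparisons.

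Sult1d1 (probe set 17449406) had levels of 6.94, 7.43 and 7.98 (lowest, median, highest) in control basal and 6.76, 8.70 and 9.002 in control clamped livers. In palm oil livers it had 6.80, 7.44 and 7.93 basal and 8.17, 8.55 and 8.92 clamped. Palm oil groups were fully separated, while in control mice 5 of 7 clamped livers lay above every basal one and 1, replicate 6, lay below every basal one. The rise was 0.91 ± 0.24 in control mice (1.88-fold, adjusted p = 0.0102) and 1.15 ± 0.21 in palm oil mice (2.23-fold in signal, adjusted p = 2.45e-04). In a fit of the control groups alone, the control rise was no longer called (0.91, adjusted p = 0.0746). The exact rank sum test did not call it either (adjusted p = 0.241).

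Sult1e1 (probe set 17449417) was dim in basal livers and showed the largest rise of the 50 members in palm oil mice. Its levels were 1.14, 1.52 and 2.20 in control basal and 1.77, 2.46 and 3.10 in control clamped livers. They were 1.06, 1.58 and 1.81 in palm oil basal and 2.24, 2.75 and 4.42 in palm oil clamped livers. Every clamped palm oil liver, and 6 of 7 clamped control livers, lay above every basal liver of its gavage group. The difference was 1.01 ± 0.24 in control (2.01-fold, adjusted p = 0.00498) and 1.35 ± 0.21 in palm oil mice (2.54-fold, adjusted p = 3.23e-05), and it passed in palm oil mice under all 49 alternatives. Basal levels lie near the median gene, where RMA compresses differences.

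Sult1c2 (probe set 17345989), of another Sult1 subfamily, went the other way. Its levels were 1.40, 2.79 and 3.62 in palm oil basal and 0.92, 1.70 and 2.09 in palm oil clamped livers. In control mice they were 1.48, 2.04 and 3.08 basal and 1.19, 1.53 and 2.49 clamped, and the groups overlapped in both gavage arms. It fell in palm oil mice (-0.93 ± 0.26, 1.90-fold lower, adjusted p = 0.0233, all 9 clamped livers below the basal median). In control mice the difference was -0.60 ± 0.30 (adjusted p = 0.247), and the difference between the gavage groups was -0.33 ± 0.40 (adjusted p = 1). The palm oil call was lost without palm oil basal replicate 4 (-0.80, adjusted p = 0.0589), replicate 5 (-0.82, 0.0526) or replicate 7 (-0.83, 0.0555), and without palm oil clamped replicate 7 (-0.83, 0.0543). The exact rank sum test did not make that call (adjusted p = 0.269).

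No other sulfotransferase passed. Sult2a8, a bile acid sulfotransferase and the 1 Sult2a gene above the median gene's level, differed by -0.45 ± 0.26 in control mice (adjusted p = 0.35) and -0.44 ± 0.23 in palm oil mice (adjusted p = 0.318). Sult1b1, the neighbour of Sult1d1 and a sulfotransferase of thyroid hormones and phenols, had group medians between 3.42 and 3.88, with overlapping groups. It differed by -0.30 ± 0.17 in control mice (adjusted p = 0.33) and 0.04 ± 0.15 in palm oil mice (adjusted p = 0.925). In control mice 5 of 7 clamped livers lay below every basal one and 1 above every basal one.

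**Figure D2:**
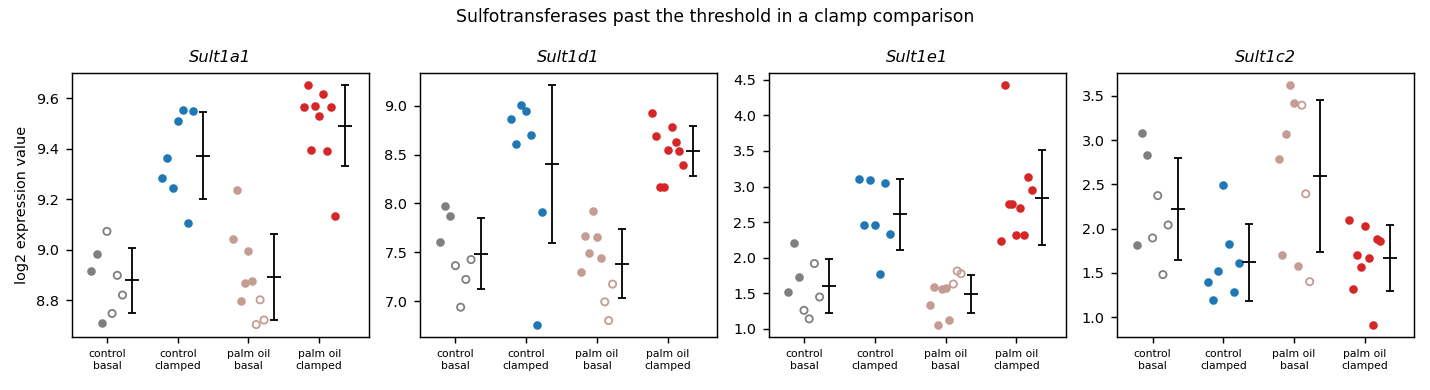
Log2 level of Sult1a1, Sult1d1, Sult1e1 and Sult1c2 on the vertical axis for every liver, by group, with the mean and SD of the group as a bar; open points are basal arrays with a description number of 44 or higher. For the first 3 genes the clamped groups lie higher than the basal ones of the same gavage, with overlap except for Sult1a1 in control mice and for Sult1d1 and Sult1e1 in palm oil mice. Control clamped replicate 6 of Sult1d1 stands at 6.76, and the clamped groups of Sult1c2 lie lower with overlap.

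Among glutathione S-transferases, the theta class genes Gstt1 and Gstt2 fell in both gavage groups and Gstt3 in control mice. Theta enzymes conjugate small halogenated compounds and organic peroxides. Gstt3, Gstt1, Gstt4 and Gstt2 lie next to one another on chromosome 10 in that order, and Gstt4, which is dim, passed in neither comparison. The promoter of Gstt1 (chr10:75797732-75797981, minus strand, 52.8% GC) held none of the motifs above, so it is printed with no capitals, and none was given for Gstt2.
Gstt1: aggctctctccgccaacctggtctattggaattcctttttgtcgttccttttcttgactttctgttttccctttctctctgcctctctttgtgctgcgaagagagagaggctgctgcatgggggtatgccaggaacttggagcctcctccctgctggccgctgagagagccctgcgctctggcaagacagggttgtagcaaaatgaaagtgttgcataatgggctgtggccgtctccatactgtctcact

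Gstt2 (probe set 17241954) had levels of 7.78, 8.03 and 8.34 in control basal and 6.36, 7.36 and 7.81 in control clamped livers. Palm oil mice had 7.47, 7.91 and 8.15 basal and 7.03, 7.38 and 7.82 clamped. In control mice 6 of 7 clamped livers lay below every basal one, and in palm oil mice 7 of 9. Gstt2 fell by 0.81 ± 0.16 in control mice (1.76-fold lower, adjusted p = 7.02e-04) and by 0.51 ± 0.14 in palm oil mice (1.43-fold lower in signal, adjusted p = 0.0185).

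Gstt1 (probe set 17241934) had levels of 8.36, 8.76 and 8.88 in control basal and 7.51, 8.21 and 8.59 in control clamped livers. Levels in palm oil mice were 8.15, 8.69 and 9.02 basal and 7.91, 8.16 and 8.54 clamped. All clamped livers of both gavage groups lay below the median of their basal group, with some overlap. Gstt1 fell by 0.49 ± 0.14 in control mice (1.41-fold lower, adjusted p = 0.0189, 5 of 7 below every basal liver) and by 0.48 ± 0.12 in palm oil mice (1.39-fold lower, adjusted p = 0.00942, 4 of 9 below). Without control clamped replicate 6, the control difference was -0.39 and was not called (adjusted p = 0.0591). Nor was it with array weights (adjusted p = 0.0828), in a fit of the control groups alone (0.0609) or by the exact rank sum test (0.0749).

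Gstt3 (probe set 17241921) had levels of 4.06, 4.48 and 4.95 in control basal and 2.90, 4.00 and 4.48 in control clamped livers. After palm oil they were 4.12, 4.63 and 5.37 basal and 3.62, 4.39 and 4.996 clamped. The fall in control mice was -0.74 ± 0.21 (1.67-fold lower, adjusted p = 0.018, 7 of 7 below the basal median), and it was not called without control clamped replicate 6 (-0.59, adjusted p = 0.0566). Nor was it by the exact rank sum test (adjusted p = 0.121) or without the arrays high in acinar markers (-0.88, adjusted p = 0.128). With palm oil the difference was -0.31 ± 0.18 (adjusted p = 0.389, 6 of 9 below the basal median). The gavage groups' clamp differences themselves differed by 0.43 ± 0.27 (adjusted p = 1), so a difference between the arms was not shown.

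Gsta4 (probe set 17519649), the alpha class enzyme that conjugates 4-hydroxynonenal, a toxic aldehyde from oxidised lipids, was lower in clamped livers of both arms. Its levels were 7.43, 7.83 and 8.06 in control basal and 6.30, 7.14 and 7.54 in control clamped livers. They were 7.48, 7.90 and 8.47 in palm oil basal and 6.84, 6.99 and 7.67 in palm oil clamped livers. Clamped livers lay below every basal one in 6 of 7 control and 7 of 9 palm oil mice. The fall was -0.67 ± 0.16 in control (1.59-fold lower, adjusted p = 0.0058) and -0.69 ± 0.14 in palm oil mice (1.62-fold lower in signal, adjusted p = 0.00121). Gsta3, of the same class, did not pass (-0.01 and 0.08).

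Gstp2 (probe set 17231116) carries the name of a pi class enzyme. Its levels were 7.14, 7.98 and 9.09 in control basal and 8.77, 9.02 and 9.25 in control clamped livers. They were 7.25, 8.51 and 8.71 in palm oil basal and 8.70, 8.84 and 9.20 in palm oil clamped livers. Basal livers were widely spread, and 2 of 7 clamped control and 7 of 9 clamped palm oil livers lay above every basal liver of their gavage group. The rise was 0.86 ± 0.22 in control (1.81-fold, adjusted p = 0.0109) and 0.57 ± 0.20 in palm oil mice (adjusted p = 0.0769). The control call was lost in a fit of the control groups alone (adjusted p = 0.0538), by the exact rank sum test (0.196) and with the 2 sets of basal arrays by description number as a term (0.32, adjusted p = 0.333). The palm oil difference was called without control basal replicate 4 (adjusted p = 0.0448), in a fit of the palm oil groups alone (0.0255) and by the exact rank sum test (0.00616).

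What the Gstp2 probe set reads is uncertain. Of its 20 nearest probe sets by number, 19 lie on chromosome 1 and none on chromosome 19, where RefSeq places Gstp2, while the probe sets of Gstp1 and Gstp3 each have 19 of 20 neighbours on chromosome 19. Gstp1 and Gstp2 are also near-identical copies. Gstp1 itself (probe set 17361073), the major pi class enzyme of male mouse liver, had medians of 12.09 and 12.14 in control basal and clamped livers and 12.05 and 12.14 in palm oil ones, and did not pass. The control rise of Gstp2 was 0.11 (adjusted p = 0.74) without the 7 basal arrays of description number 44 or higher, while the palm oil rise was then called (0.35, adjusted p = 0.0306). Without the other 9 basal arrays it was called in both arms. The rise was then 1.42 in control (adjusted p = 8.9e-06) and 0.998 in palm oil mice (adjusted p = 9.53e-04).

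Of the other glutathione S-transferases none passed in a clamp comparison. The mu class genes Gstm1, Gstm2, Gstm3, Gstm4, Gstm6 and Gstm7 on chromosome 3, which detoxify electrophiles such as epoxides, had differences from -0.50 ± 0.23 (Gstm4) to 0.37 ± 0.29 (Gstm3) in control mice. After palm oil they ran from -0.20 (Gstm1) to 0.50 ± 0.26 (Gstm3), where palm oil clamped replicate 4 reached 7.12 and the median was 4.82. Gstk1, the kappa class enzyme of mitochondria and peroxisomes, and the omega class enzyme Gsto1 differed by at most 0.14 in size in either comparison.

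**Figure D3:**
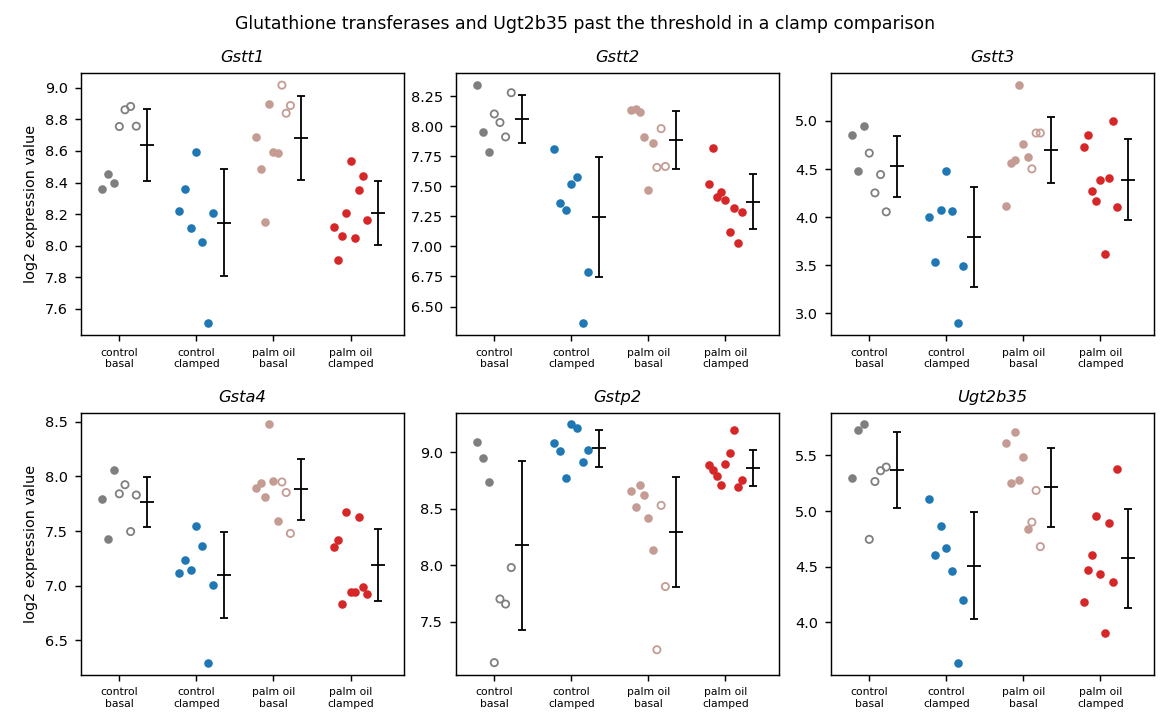
Log2 level of Gstt1, Gstt2, Gstt3, Gsta4, Gstp2 and Ugt2b35 on the vertical axis for every liver, by group, with the group's mean and SD as a bar; open points are basal arrays with a description number of 44 or higher. The clamped group means are lower than the basal ones for all 6 genes but Gstp2, with overlapping points in every case. Open basal points of Gstp2 reach down to 7.14, and control clamped replicate 6 is the lowest of its group for Gstt1 (7.51), Gstt2 (6.36), Gstt3 (2.90), Gsta4 (6.30) and Ugt2b35 (3.64).

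Among UDP-glucuronosyltransferases, Ugt2b35 (probe set 17438621) was the 1 member that passed. It belongs to the Ugt2b group, which glucuronidates steroids, bile acids and drugs, and lies within the Ugt2 genes of chromosome 5. Its levels were 4.75, 5.36 and 5.78 in control basal and 3.64, 4.61 and 5.11 in control clamped livers. They were 4.68, 5.25 and 5.71 in palm oil basal and 3.90, 4.47 and 5.38 in palm oil clamped livers. Clamped livers lay below every basal one in 5 of 7 control and 6 of 9 palm oil mice, so the groups overlapped. The fall was -0.86 ± 0.21 in control (1.82-fold lower in signal, adjusted p = 0.00529) and -0.64 ± 0.18 in palm oil mice (1.56-fold lower, adjusted p = 0.0229). The palm oil call was lost without palm oil basal replicate 3 (-0.58, adjusted p = 0.0524) or palm oil clamped replicate 6 (-0.56, adjusted p = 0.0606), and the exact rank sum test did not make it (adjusted p = 0.0835).

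The sequence before its start (chr5:87000610-87000859, plus strand, 33.6% GC) is shown for comparison with that of Sult1d1, which lies on the same chromosome and rose. It held none of the searched motifs.
Ugt2b35: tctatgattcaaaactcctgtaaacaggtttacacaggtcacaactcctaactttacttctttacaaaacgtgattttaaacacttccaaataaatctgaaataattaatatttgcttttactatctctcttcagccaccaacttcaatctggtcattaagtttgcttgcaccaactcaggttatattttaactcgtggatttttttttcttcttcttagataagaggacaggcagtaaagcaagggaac

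The neighbouring Ugt2 genes did not pass. Ugt2b1, Ugt2b5, Ugt2b36 and Ugt2a3 had group medians of 9.52 to 9.63, 9.07 to 9.48, 8.64 to 9.47 and 7.24 to 7.54. Ugt2b34 differed by -0.45 ± 0.19 in control mice (adjusted p = 0.158), where control clamped replicate 6 stood at 6.74 and the other 6 clamped livers at 8.17 to 8.83.

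Ugt2b38 and Ugt2b37 were the most variable members. Ugt2b38 ran from 1.68 to 5.43 in control basal, 2.12 to 6.36 in control clamped, 1.09 to 5.06 in palm oil basal and 1.63 to 5.62 in palm oil clamped livers. Its SD within groups was 1.07 to 1.56, while the median over the 33 brighter members was 0.38 and over all genes above the median level 0.29. The clamp differences of Ugt2b38, 1.10 ± 0.63 without and 1.19 ± 0.56 with palm oil, were not called (adjusted p = 0.335 and 0.236). Clamped livers lay above the median of their basal group in 5 of 7 control and 8 of 9 palm oil mice. Ugt2b37 had an SD of 1.19, with livers at 3.94 and 4.65 (control clamped) and at 4.31 and 5.61 (palm oil basal) and group medians of 1.34 to 1.61.

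Ugt3a1 and Ugt3a2, which attach other sugars than glucuronic acid, had group medians of 4.96 to 5.09 and 7.79 to 8.09 and did not pass. Ugt8a, the galactosyltransferase of myelin lipids, was dim, at 1.37 to 1.42.

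The supply of cosubstrates was read from lists of genes outside the families. None of 3 genes for UDP-glucuronic acid (Ugp2, Ugdh, Slc35d1) passed in either clamp comparison. Ugdh, which makes UDP-glucuronic acid, differed by 0.25 ± 0.11 in control mice (adjusted p = 0.185). Of 6 genes for sulfate and PAPS, 1 fell in control mice (16.7%, near the 16.5% of genes above the median level) and 0 passed in palm oil mice. The 1 called was Slc26a1, a sulfate transporter (-0.46 ± 0.12, adjusted p = 0.0151, and -0.26 in palm oil mice, adjusted p = 0.168), while the PAPS synthase Papss2 differed by -0.50 ± 0.20 (adjusted p = 0.136) and -0.26. Of 7 genes for glutathione, 0 passed in control mice and 1 in palm oil mice (14.3%, near the 14.2% of genes above the median level). It was Gclc, the catalytic subunit that sets the pace of glutathione synthesis (-0.45 ± 0.12, adjusted p = 0.0151, and -0.33 in control mice, adjusted p = 0.145). Of all genes, 8.75% were called in control and 7.57% in palm oil mice.

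Regulators of the families moved in both directions. Of 17 measured, 7 rose and 4 fell in control mice, and 5 rose and 3 fell in palm oil mice. These and the counts of the lists that follow stand beside 8.75% and 7.57% of all genes called in control and palm oil mice, and 16.5% and 14.2% of genes above the median level. Nr1i3, which encodes CAR, had median levels of 9.98 in control basal and 8.92 in control clamped livers and fell by 1.24 ± 0.22 (adjusted p = 2.12e-04), with -0.91 ± 0.20 in palm oil mice (adjusted p = 0.00186). Cebpa, a factor of mature hepatocytes, changed by -0.56 ± 0.10 (adjusted p = 2.65e-04) and -0.31 ± 0.09 (adjusted p = 0.0251). Maff, a small Maf protein that pairs with NRF2, rose by 1.02 ± 0.17 (adjusted p = 6.85e-05) and 1.04 ± 0.15 (adjusted p = 7.44e-06). The genes of NRF2 (Nfe2l2, 0.12 and 0.10) and PXR (Nr1i2, -0.36 and -0.15) did not pass. Ahr, the gene of AHR, had mean levels of 6.235 in control basal and 6.962 in control clamped livers. In palm oil mice its means were 6.106 basal and 6.827 clamped.

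Known targets of these regulators outside the families also had members that passed in each direction. Of 17 NRF2 targets, 1 rose and 2 fell in control mice, and 2 rose and 2 fell in palm oil mice, and the 3 called in control mice (17.6%) are near the share of genes above the median level. Hmox1, which degrades heme, rose by 2.27 ± 0.22 in control mice (adjusted p = 1.54e-08) and 2.00 ± 0.20 in palm oil mice (adjusted p = 7.76e-09). Cat, catalase, was the third called in control mice (-0.29, adjusted p = 0.0232), beside Abcc3. Nqo1, named after its values were seen as the usual NRF2 reference, differed by -0.31 and -0.34 (adjusted p = 0.442 and 0.337). Of 7 AHR targets, 1 rose in each comparison, Tiparp (1.86 ± 0.26 and 1.76 ± 0.23, adjusted p = 6.73e-06 and 1.65e-06). Cyp1a1, an AHR target also named after its values were seen, differed by -0.43 and 0.00.

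Of 12 CAR and PXR targets, 2 rose and 3 fell in each comparison. Gadd45b, a stress response gene, rose by 2.24 ± 0.28 (adjusted p = 1.55e-06) in control mice. Abcc3, an exporter of conjugates into blood, fell by 0.67 ± 0.12 (adjusted p = 3.35e-04), and Alas1, the first enzyme of heme synthesis, fell by 0.76 ± 0.16 (adjusted p = 0.00106). Cyp2b10 and Cyp2b9 of this list, named after their values were seen, went in opposite directions. Mean levels of Cyp2b10 were 1.167 and 2.896 in control basal and clamped livers and 1.41 and 2.871 in palm oil ones. Those of Cyp2b9 were 4.882 and 2.341, then 5.272 and 2.579.

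Other conjugating enzymes passed in 6 of 17 cases in control mice (2 rose, 4 fell) and 6 of 17 in palm oil mice (3 rose, 3 fell). Nnmt, which methylates nicotinamide, rose by 0.91 ± 0.13 (adjusted p = 1.61e-05). Acsm5, an acyl-CoA synthetase of mitochondria, fell by 1.15 ± 0.22 (adjusted p = 5.58e-04), and Mgst3, a microsomal glutathione S-transferase, by 0.89 ± 0.19 (adjusted p = 0.00152). Of 12 transporters of conjugates and bile acids, 0 rose and 4 fell in control mice, Abcc3, Abcc6 (-0.55), Abcc2 (-0.46, adjusted p = 0.0115), which exports conjugates into bile, and Slc10a1. In palm oil mice 0 rose and 1 fell, Abcc3 (-0.48 ± 0.11, adjusted p = 0.00318).

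The calls were recomputed without sets of arrays. The basal arrays of description number 44 or higher were 4 of the 7 control and 3 of the 9 palm oil ones, so few basal arrays remained in these refits. Without the 7 basal arrays of description number 44 or higher, 4 members were called in control mice (Gstt2, Gstt3, Sult1a1 and Ugt2b35) and 8 in palm oil mice. Differences of the lost members in control mice were then -0.66 for Gsta4 (adjusted p = 0.0925), -0.26 for Gstt1 (0.492), 0.58 for Sult1d1 (0.346) and 0.79 for Sult1e1 (0.196). Gstp2 was lost in control mice too (0.11, adjusted p = 0.74). In palm oil mice Gstt1 was lost (-0.36, adjusted p = 0.108) and Gstp2 was gained (0.35, adjusted p = 0.0306). Without the 9 other basal arrays, an alternative chosen after seeing the data, Gsta4 (-0.57, adjusted p = 0.0865), Gstt2 (-0.40, 0.264), Sult1c2 (-0.73, 0.139) and Ugt2b35 (-0.35, 0.462) were not called in palm oil mice, nor Gstt3 (-0.56, 0.148) and Ugt2b35 (-0.68, 0.0726) in control mice. Sult6b1 was then called in control mice (-0.80, adjusted p = 0.00661), and Gstp2 in palm oil mice (0.998, adjusted p = 9.53e-04). With the split of the basal arrays as a term instead, 6 members were called in control mice and 7 in palm oil mice. That term varies among basal arrays only. The fit therefore sets clamped livers against the basal level at lower description numbers, and comes close to leaving out the 7 arrays. Gstt1 was lost in both (-0.28, adjusted p = 0.279, and -0.35, adjusted p = 0.0539), and Gstp2 and Sult1d1 (0.58, adjusted p = 0.18) in control mice.

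The 12 arrays high in acinar markers held 4 of the 7 control basal and 5 of the 9 palm oil basal arrays. They included 5 of the 7 basal arrays of description number 44 or higher and 4 of the other 9. Leaving out either set therefore removes some of the same arrays. Without the 12 arrays, 3 members were called in control mice (Gsta4, Gstp2 and Sult1a1) and 5 in palm oil mice (Gsta4, Sult1a1, Sult1c2, Sult1e1 and Ugt2b35). Sizes in control and palm oil mice were then 0.91 and 0.95 for Sult1d1, 1.15 and 1.52 for Sult1e1 and -0.74 and -0.69 for Gstt2. Gsta4 stood at -0.85 and -0.86, Ugt2b35 at -0.82 and -1.05, and Gstp2 at 1.22 and 0.20. The palm oil values of Ugt2b35 and Gstp2 moved by more than 1.5 times. With the mean acinar level of each array as a term in the fit, 7 members were called in control mice and 7 in palm oil mice. Gstp2 (0.74, adjusted p = 0.0642) and Gstt1 (-0.45, 0.0755) were lost in control mice and Ugt2b35 (-0.57, 0.0887) in palm oil mice. The part of neutrophil markers in these results was not tested.

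**Figure D4:**
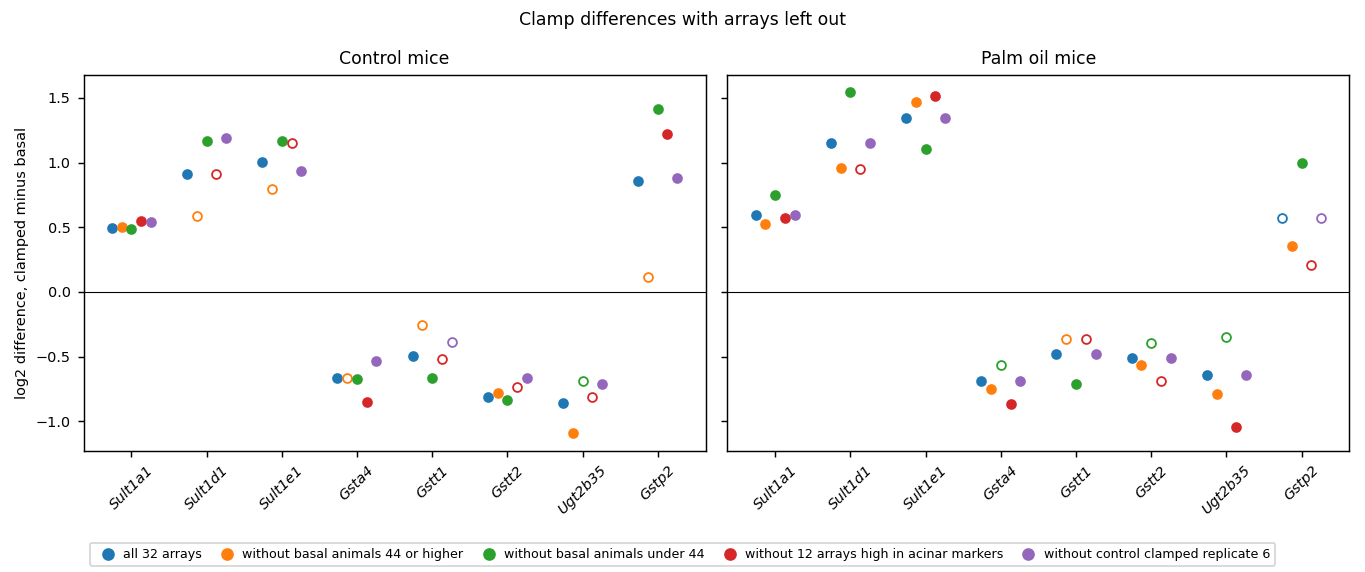
Log2 difference, clamped minus basal, on the vertical axis for 8 members in control (left) and palm oil mice (right), with all 32 arrays and with sets of arrays left out; filled points passed the adjusted threshold. Sult1a1 is filled throughout, between 0.49 and 0.75, while Gstp2 ranges from 0.11 to 1.42 in control mice.

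The 2 sets of basal arrays differed in several members themselves. Of the 33 brighter members, 10 differed by more than 0.5 in mean level between them (30.3%), as did 8.88% of all genes above the median level. Ugt2b36 had a mean of 9.29 in the 9 arrays with lower description numbers and 8.39 in the other 7, Ugt2b5 had 9.51 and 8.65, and Gstp2 had 8.65 and 7.73. Gsta3 (-0.66), Ugt2a3 (-0.58), Sult1d1 (-0.53), Sult2a8 (-0.53) and Sult1c2 (-0.52) were also lower in the 7 arrays, and Gstp3 (0.62) and Ugt2b37 (1.09) higher. For Sult1a1 the difference was -0.11, and for Gstt2 -0.02.

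Palm oil was compared with water in basal and in clamped mice, which asks whether a single fat load changed these genes. Description numbers of 44 or higher were unevenly split between the basal groups, with 4 of 7 control and 3 of 9 palm oil arrays. No member passed in either comparison, nor did any other gene (0% of genes tested). In limma, 2 members had an unadjusted p under 0.05 in basal mice and 1 in clamped mice, against 5.11% and 3.52% of all genes, and the exact rank sum test called 0 members too. Groups overlapped for every member, and they did not for 0.0135% (basal) and 0.00902% (clamped) of all genes. The 95% interval of the palm oil difference lay within 2-fold for 48 of 50 members in both comparisons, the others being Ugt2b37 and Ugt2b38.

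For the 10 members that passed on the clamp, the narrowest interval of the palm oil difference was that of Sult1a1, from -0.17 to 0.20 in basal mice and from -0.07 to 0.30 in clamped mice. The interval that reached furthest from 0 in basal mice was that of Sult1c2, from -0.19 to 0.95, and in clamped mice that of Gstt3, from 0.21 to 0.99. The latter did not include 0. Each of the 20 intervals lay within 2-fold.

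In basal mice the smallest p-values belonged to Sult2a3 (-0.29 ± 0.13, unadjusted p = 0.0328 and adjusted p = 0.96), Sult6b1 (-0.36 ± 0.18, unadjusted p = 0.0495 in limma) and Sult6b2 (-0.22), all among the dim members. In clamped mice they belonged to Gstt3, Gstk1 (0.14 ± 0.08) and Sult2b1 (0.16). Gstt3 had 2.90, 4.00 and 4.48 in control clamped and 3.62, 4.39 and 4.996 in palm oil clamped livers, which overlapped. Its difference of 0.60 ± 0.19 had an unadjusted p of 0.00387 in limma and an adjusted p of 1.

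The members' differences between clamped palm oil and clamped control livers were above 0 in 42 of 50, with a median of 0.10, where the median over all genes was 0.00 and 53.8% of genes above the median level were above 0. That shift rested on 1 array. Control clamped replicate 6 was the lowest of its group in 25 of the 33 brighter members, and in 20.7% of all genes above the median level. Without it the median was 0.02 and 30 of 50 members were above 0.

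The interaction, the clamp difference in palm oil mice minus that in control mice, passed for 0 members and for 0% of all genes in limma. At an unadjusted p under 0.05 it had 0 members and 3.49% of all genes. The smallest p-values were those of the dim Sult2a3 (0.37), Sult6b2 (0.32) and Sult6b1 (0.46), each with an adjusted p of 1. For the 3 rising sulfotransferases it was 0.10 ± 0.13 (Sult1a1), 0.24 ± 0.32 (Sult1d1) and 0.34 ± 0.32 (Sult1e1). The interval lay within 2-fold for 45 of 50 members.

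**Figure D5:**
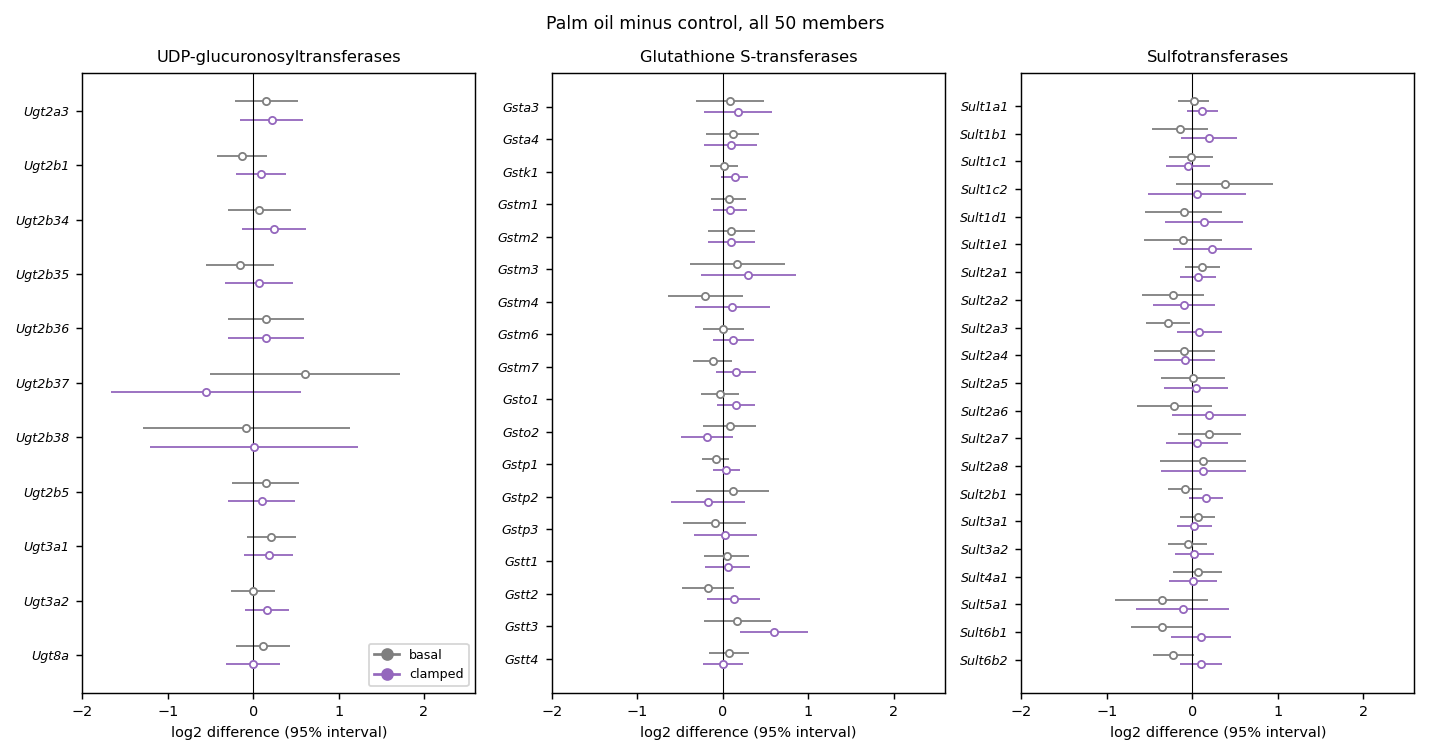
Log2 difference, palm oil minus control, with its 95% interval on the horizontal axis for each of the 50 members, in basal (grey) and clamped mice (purple), in 1 panel per family. No point is filled, since none passed the adjusted threshold, and the widest intervals are those of Ugt2b37 and Ugt2b38.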

How the data were processed

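The authors deposited log2 values. According to the submitters' processing notes, RMA was run in Expression Console 1.3.0.187 of Affymetrix. RNA was extracted with miRNeasy columns and DNase, amplified and biotin-labelled, per the labels' protocols. RMA corrects background, normalizes between arrays and summarises probes, and compresses low values. Each array is 1 mouse, and the number of arrays limits the precision.

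Of 41345 probe sets, a platform annotation gave 23521 a single symbol and 1814 several, and 16010 were unlisted. All 50 members matched RefSeq by Entrez identifier and 0 symbols changed. Promoters came from RefSeq (GRCm38.p6).

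limma 3.58.1 in R 4.3.3 (lmFit, eBayes) was run on all 32 arrays with 1 mean per group (28 residual degrees of freedom), and p-values were adjusted by Benjamini-Hochberg over 22180 genes. Adjusted p-values are from this limma fit, except where a sentence names arrays left out, an added term, another fit or the exact rank sum test, and ± gives the SE, and intervals are at 95%. The procedure was tested on simulated data.

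Members and lists were chosen with earlier results of these data known. All members could be named. Full values went to at most 4 rising and 4 falling members per family in each clamp comparison and to the 3 smallest p-values of the other comparisons. From each pathway list at most 3 called genes were named, those with the smallest p in control mice, and names outside this rule (in the regulators, targets, supply and transporter lists) were added after values were seen. Alternatives were other scalings, filters, thresholds and tests, a replicate block, the acinar level or the split of the basal arrays as a term, and arrays left out.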

Additional observations from a re-analysis of the deposited data

Results flagged for a closer look

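In 60 groups of livers (15 members in 4 groups), 4 single livers stood far from the rest of their group by Dixon's test at 95%, and chance gives about 1 in 20 groups. Sult1e1 was 4.42 in palm oil clamped replicate 2, where the next liver had 3.13. Gsta4 was 8.47 in palm oil basal replicate 4, where the next had 7.95. Sult1a1 was 9.13 in palm oil clamped replicate 9, the lowest of its group, where the next had 9.39. Sult2a3 was 1.84 in control basal replicate 5, where the next had 1.26. Leaving out each of the first 3 livers in turn ended none of these 3 genes' calls in a clamp comparison.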

How the results depend on the processing

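Out of 50 members, 9 were called in control mice, 8 in palm oil mice and 7 in both. Without the 7 basal arrays of description number 44 or higher the control count was 4 and the count in both 3. Without the 12 arrays high in acinar markers the counts were 3, 5 and 2. With the exact rank sum test the control count was 5 and the count in both 4. Fewer arrays enter the first and second of these; the cause of the third was not tested. Leaving out each array in turn gave 7 to 10, 7 to 9 and 6 to 8 calls. The palm oil comparisons and the interaction stayed at 0 to 0 calls over these refits. No called difference of a named member changed direction under any alternative run.

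The replicate numbers were not taken to pair the mice. Correlations of same-numbered livers were over 0.1 in 0 of 7 pairs of control basal and control clamped mice (-0.363 to 0.036) and 4 of 9 pairs of palm oil basal and clamped mice (-0.189 to 0.207). Between gavage groups they were so in 3 of 7 basal and 1 of 7 clamped pairs. With the replicate number as a block, the counts were 9, 8 and 7, and no call of the other comparisons changed. RMA values near the median gene, as for Sult1e1 and Sult1c2, limit the size of a difference that can be read.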
